A study of Homo sapiens with 40 samples.

Results

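The genes described here are 32 established transcriptional targets of the tumour suppressor p53, taken as a list of known targets with earlier results of these data known. The count table lists 58395 genes. All 32 targets were among the 28922 genes that had at least 10 counts summed over the 40 libraries and were tested. By the role each protein is best known for, 6 act in the cell cycle, 5 feed back on p53, 9 act in apoptosis and survival, 5 in DNA repair, 5 in metabolism and redox balance, and 2 in RNA binding and antiviral defence.

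The cells were HEK293A, a human embryonic kidney line, either wild type (WT) or with the PARP1 gene deleted by CRISPR/Cas9 (PARP1-KO). PARP1 binds DNA breaks and modifies nearby proteins with poly(ADP-ribose). The knockout was made with a pair of guides that remove constitutive coding exons, and it is a single clone set against its parental line, so that the gene loss and the clone cannot be told apart. Each genotype was left untreated, or was treated for 5 to 5.5 h with 0.1% DMSO, with topotecan (Tpc), with OL9-119, or with Tpc and OL9-119 together, with 4 libraries per group. Tpc traps topoisomerase 1 on DNA, and OL9-119 inhibits TDP1, an enzyme that removes trapped topoisomerase 1. The dose of Tpc was 100 nM in WT and 50 nM in PARP1-KO cells, so that genotype and dose cannot be told apart in any comparison of the Tpc responses. OL9-119 was used at 5 µM in both. The drugs were given in DMSO, and DMSO-treated cells of the same genotype are the control below, shared by all drug comparisons of that genotype. The labels call the 4 libraries of a group biological replicates and the study's methods call them technical, so the p-values measure the spread between these samples only. In bulk RNA a change in cell make-up and a change in RNA per cell cannot be told apart.

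Libraries held between 3455043 and 20379777 counts (median 10656829). Of the 20 WT libraries, 8 had fewer than 17000 genes detected once all were thinned to the lowest depth, and none of the PARP1-KO libraries did. Results that were lost without these 8 are given with and without them. Calls that were lost when only the libraries compared entered the fit are named in the last section. The genes taken as markers of this line were detected. Vimentin (VIM) was at 471 to 970 CPM (counts scaled to a common library total) and neurofilament light chain (NEFL) at 228 to 364 CPM. The keratins KRT8 and KRT18 lay at 532 to 1031 and 189 to 514 CPM, and neurofilament medium chain (NEFM) at 3.38 to 49.6 CPM. The leukocyte marker PTPRC was at 0 in all 20 WT libraries and reached at most 0.464 CPM in PARP1-KO libraries. Albumin (ALB) was at most 1.20 CPM and the endothelial marker PECAM1 at most 2.74 CPM. The fibroblast collagen COL1A1 lay between 9.09 and 43.0 CPM, a range that overlapped that of NEFM. PARP1 itself averaged 818 ± 54.2 CPM (SD, n = 4) in WT and 39.4 ± 6.73 CPM (SD, n = 4) in PARP1-KO cells in DMSO, 4.82% of the WT level. The ranges over all libraries were 737 to 887 CPM in WT and 30.4 to 46.6 CPM in PARP1-KO cells, with no overlap. An exact two-sided permutation test of the DMSO groups gave p = 0.0286, the smallest value that 4 against 4 libraries allow.

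p53 is a transcription factor that MDM2 holds at a low level in unstressed cells. After DNA damage the kinases ATM, ATR, CHK1 and CHK2 act on p53 and on its inhibitors, p53 accumulates, and its target genes are switched on. CDKN1A (p21) then stops the cell cycle, MDM2 and PPM1D switch the response off again, and genes such as FAS, TNFRSF10B and AEN favour cell death. HEK293-derived cells carry the adenoviral E1 genes, whose products bind p53 and restrain it.

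A p53 tetramer binds a pair of half-sites, each made of 3 purines, a 4-base core that starts with C and ends with G, and 3 pyrimidines. The sequences of 8 members are shown because they hold such a pair within 3000 bases of the gene's annotated start, and because they include the members that responded to Tpc (GADD45A, PLK2 and AEN) beside members that did not pass that test. They were read 5′ to 3′ on the gene's own strand from the hg38 genome, and capitals mark the 4-base core of each half-site.

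GADD45A: gaaCATGtctaagCATGctg
PLK2: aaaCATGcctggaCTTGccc
AEN: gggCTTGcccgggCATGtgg
CDKN1A: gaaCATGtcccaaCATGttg
BTG2: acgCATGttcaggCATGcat
ZMAT3: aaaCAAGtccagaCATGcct
CCNG1: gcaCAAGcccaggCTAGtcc
DDB2: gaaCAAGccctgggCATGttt

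The GADD45A site lies in an intron at chr1:67686775-67686794 on the plus strand, 1574 bases after the gene's start, with 1 mismatch to the p53 motif. The PLK2 site lies upstream at chr5:58462274-58462293 on the minus strand and has 0 mismatches. The AEN site is at chr15:88621306-88621325 on the plus strand, just upstream of the start, with 2 mismatches. The CDKN1A site at chr6:36676449-36676468 on the plus strand spans the first base of the gene as annotated by GENCODE, with 2 mismatches. It lies upstream of the RefSeq promoter entry of CDKN1A, at chr6:36678464-36678763. The BTG2 site is upstream at chr1:203303642-203303661 on the plus strand with 2 mismatches. ZMAT3 holds a match with 0 mismatches in an intron at chr3:179070188-179070207 on the minus strand. The CCNG1 site is intronic at chr5:163437926-163437945 on the plus strand with 1 mismatch. The DDB2 pair lies in an exon at chr11:47214979-47214999 on the plus strand, has 0 mismatches and is the only one of the 8 with a spacer, of 1 base.

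With at most 2 mismatches and a spacer of 0 to 13 bases, 16 of the 32 members (50.0%) had a pair within 3000 bases on either side of the start, against 29.3% of the 28602 tested genes with an annotated window. Without a spacer the numbers were 12 members (37.5%) and 3.07% of the tested genes. The motif reads the same on both strands, so each match was counted once. In the shorter promoter window of 250 bases before the start, a perfect half-site was found in 6 of the 23 members with a RefSeq promoter entry (26.1%). Of 35116 single promoters 5.57% held one. A member counted if any of its promoters held a half-site, and some members have several, so these shares are not like for like. The window rests on 1 start per gene, and FAS, which had no pair in it, had one with 2 mismatches in a promoter of another RefSeq start. A match describes these letters only, and binding of p53 was not measured.

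Loss of PARP1 was accompanied by higher RNA of many p53 targets. In DMSO, 16 of the 32 members passed the threshold of 0.01 on the adjusted p, 13 of them upregulated and 3 downregulated in PARP1-KO cells. Over all tested genes 12.4% passed (6.67% upregulated and 5.75% downregulated), and 27.8% of the 11849 genes expressed at least as highly as the lowest member. In untreated cells 13 members passed, 11 upregulated and 2 downregulated, against 11.7% of all tested genes (5.98% upregulated and 5.73% downregulated) and 26.6% of those expressed. The median log2 fold change of the members was 0.44 in DMSO and 0.33 untreated, against 0.02 and 0.01 over the expressed genes. The libraries of the genotypes did not overlap for 16 of the 32 members in DMSO, 12 higher and 4 lower in PARP1-KO cells, against 20.1% of all tested and 35.9% of the expressed genes. In untreated cells this held for 15 members, 13 higher and 2 lower, against 19.7% and 37.4%. Of the 16 members that passed in DMSO 15 did not overlap (93.8%), as did 90.9% of all genes that passed.

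**Figure D1:**
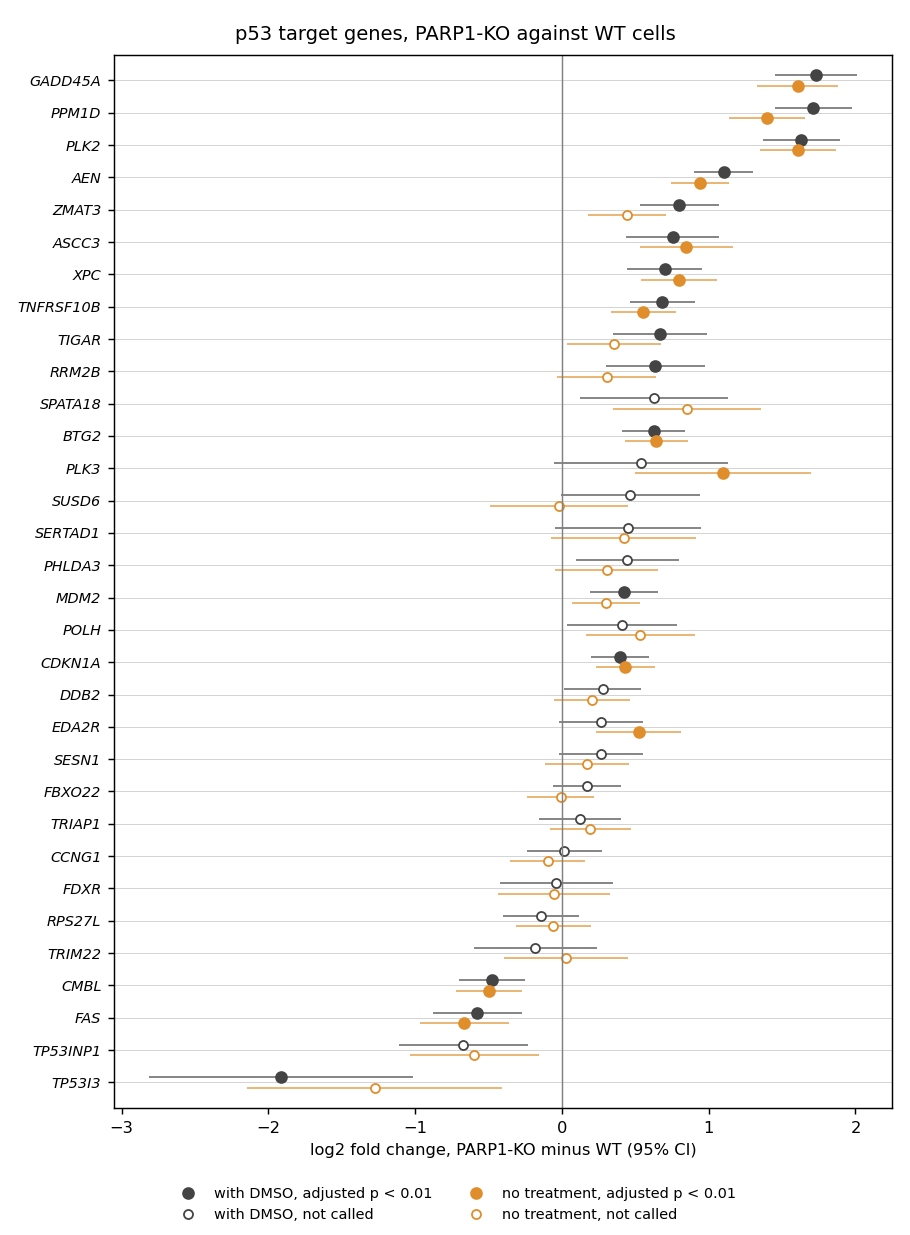
Log2 fold change of each of the 32 p53 targets in PARP1-KO against WT cells, in DMSO and untreated, sorted by the value in DMSO. Bars give the 95% confidence interval, and filled points mark members past the threshold. The points of PPM1D, GADD45A, PLK2 and AEN lie farthest to the right in DMSO (1.10 to 1.73), and TP53I3 lies farthest to the left (-1.91).

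Among the 6 cell cycle members, 4 rose in PARP1-KO cells in DMSO and 5 rose in untreated cells, with none lower. GADD45A, a stress sensor that binds p21 and PCNA and inhibits the CDK1 kinase, was at 65.9, 46.6, 85.9 and 65.3 CPM in WT and at 196, 211, 274 and 195 CPM in PARP1-KO cells in DMSO. The lowest PARP1-KO library was above the highest WT library by a wide margin. The log2 fold change was 1.73 ± 0.14 (SE, adjusted p = 5.08e-15, edgeR) in DMSO and 1.61 in untreated cells. PLK2, a polo-like kinase of centriole duplication and the stress response, gave 47.2, 39.8, 39.9 and 34.9 CPM in WT and 111.1, 118.7, 158.4 and 114.9 CPM in PARP1-KO cells in DMSO, with no overlap (log2 fold change 1.63 ± 0.13, adjusted p = 4.2e-15).

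BTG2, an antiproliferative cofactor of mRNA deadenylation, gave 85.8, 98.4, 86.3 and 75.6 CPM in WT and 135, 131, 137 and 131 CPM in PARP1-KO cells. The groups were apart and the PARP1-KO libraries were close to each other (log2 fold change 0.62 ± 0.11, adjusted p = 9.4e-06, edgeR). CDKN1A, the inhibitor of cyclin-dependent kinases through which p53 halts the cell cycle, gave 258, 220, 247 and 211 CPM in WT and 335, 310, 270 and 317 CPM in PARP1-KO cells. Its groups were also apart, and its rise was the smallest of these 4 (log2 fold change 0.40 ± 0.10, adjusted p = 0.00241). CDKN1A shares 146 exonic bases with the antisense gene DINOL. The call on CDKN1A in DMSO was lost with no low-count filter (adjusted p = 0.0194), and without PARP1-KO replicate 1, WT replicate 2 or WT replicate 4 (0.34 to 0.36, adjusted p up to 0.0200). With only the libraries compared in the fit, the CDKN1A call was lost in DMSO (adjusted p = 0.0808, edgeR) and in untreated cells (adjusted p = 0.0139). PLK3, a further polo-like kinase, passed in untreated cells only, at 3.08 to 11.9 CPM in WT and 14.9 to 18.2 CPM in PARP1-KO cells. The PLK3 log2 fold change was 1.10 ± 0.30 (adjusted p = 0.00516, edgeR), and without the 8 libraries of few detected genes it was 0.75 (adjusted p = 0.0190). Without WT replicate 1 it was 0.83 (adjusted p = 0.0539), and the call was also lost without WT replicate 4 or PARP1-KO replicate 1 or 2 (adjusted p up to 0.0166). SERTAD1, a cofactor of CDK4, did not pass in either comparison.

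The 5 members that feed back on p53 were divided. PPM1D (WIP1), the phosphatase that turns off ATM and p53 signalling, was at 64.2, 71.6, 35.4 and 62.0 CPM in WT and at 169, 202, 207 and 188 CPM in PARP1-KO cells in DMSO. It rose by 1.71 ± 0.13 on the log2 scale (SE, adjusted p = 6.99e-16, edgeR) in DMSO and by 1.40 in untreated cells, the groups being apart in both. MDM2, the ubiquitin ligase that degrades p53, was at 314, 373, 258 and 294 CPM in WT and 403, 401, 455 and 403 CPM in PARP1-KO cells in DMSO. Its rise of 0.42 ± 0.12 in DMSO passed the test (adjusted p = 0.00497) and in untreated cells the value was 0.30 (adjusted p = 0.0591). The call in DMSO was lost once gene length and GC content were modelled (0.25, adjusted p = 0.0521), and without WT replicate 1, 3 or 4 or PARP1-KO replicate 3 (0.34 to 0.43, adjusted p up to 0.0383). MDM2 shares 439 exonic bases with a gene on its own strand and 918 with antisense genes. CCNG1 (cyclin G1), which recruits a phosphatase to MDM2, had a log2 fold change of 0.02 with a 95% interval from -0.24 to 0.27. FBXO22, a ubiquitin ligase subunit that acts on p53, gave 0.17. TP53INP1, which promotes p53 phosphorylation, gave -0.67 (adjusted p = 0.0219), with PARP1-KO libraries that all lay below the WT libraries.

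In the apoptosis and survival group of 9, AEN and TNFRSF10B rose and FAS fell in DMSO, and the same 3 passed in the same directions in untreated cells, where EDA2R rose too. AEN, a nuclease that aids DNA breakdown in apoptosis, was at 117.6, 128.4, 134.6 and 120.9 CPM in WT and 262, 281, 264 and 268 CPM in PARP1-KO cells in DMSO. These groups were widely apart (log2 fold change 1.10 ± 0.10, adjusted p = 5.03e-13, edgeR). TNFRSF10B, the TRAIL death receptor DR5, was at 117.5, 136.1, 97.6 and 132.1 CPM in WT and 195, 202, 191 and 187 CPM in PARP1-KO cells, again with no overlap (0.68 ± 0.11, adjusted p = 2.78e-06). FAS, the death receptor of the FAS ligand, went the other way, at 59.8, 52.6, 53.3 and 64.5 CPM in WT and 41.9, 32.4, 43.2 and 37.2 CPM in PARP1-KO cells. It fell by 0.58 on the log2 scale in DMSO (adjusted p = 0.00342) and by 0.67 in untreated cells, and it shares 166 exonic bases with STAMBPL1 on the same strand and 2286 with antisense genes. The DMSO call on FAS was lost without PARP1-KO replicate 2 or 4 or WT replicate 4 (-0.56 to -0.50, adjusted p up to 0.0267).

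EDA2R, a receptor of the same superfamily, was at 34.3 to 59.1 CPM in WT and 66.5 to 69.9 CPM in PARP1-KO cells without treatment (log2 fold change 0.52, adjusted p = 0.00595, edgeR). Without the 8 libraries of few detected genes it was 0.28 (adjusted p = 0.111), with no low-count filter the adjusted p was 0.0112, and the call was lost without any of the 4 PARP1-KO replicates or WT replicate 1 or 3 (0.40 to 0.53, adjusted p up to 0.0591). In DMSO the EDA2R log2 fold change was 0.27 (adjusted p = 0.188) and the groups overlapped. The other 5 members of the group, PHLDA3 (an inhibitor of AKT), TRIAP1, RPS27L, SUSD6 and SPATA18 (a mitochondrial quality control factor), did not pass in either genotype comparison. SPATA18 came nearest, at 0.85 in untreated cells with an adjusted p of 0.0105.

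Of the 5 DNA repair members, 3 rose in DMSO and 2 in untreated cells. ASCC3, a helicase of alkylation repair, was at 105, 146, 105 and 186 CPM in WT and 206, 217, 263 and 227 CPM in PARP1-KO cells in DMSO. The WT libraries spread widely and still lay below all PARP1-KO libraries (log2 fold change 0.75 ± 0.16, adjusted p = 0.000236, edgeR). XPC, which recognises lesions in nucleotide excision repair, was at 64.2, 75.1, 58.8 and 56.4 CPM in WT and 94.0, 96.0, 120.1 and 103.7 CPM in PARP1-KO cells, with no overlap (0.70 ± 0.13, adjusted p = 2.91e-05). XPC shares 1553 exonic bases with antisense genes. RRM2B, a ribonucleotide reductase subunit that supplies deoxynucleotides for repair, was at 58.1, 97.3, 33.2 and 81.7 CPM in WT and 94.1, 97.3, 134 and 94.1 CPM in PARP1-KO cells in DMSO. It was the only member that passed in DMSO with overlapping libraries (0.64 ± 0.17, adjusted p = 0.00398), and in untreated cells it gave 0.30 (adjusted p = 0.212). The RRM2B call was lost without WT replicate 1 or 3 or PARP1-KO replicate 3 (0.40 to 0.56, adjusted p up to 0.0529), and once gene length and GC content were modelled (0.42, adjusted p = 0.0259). The damage sensor DDB2 (0.28) and the lesion-bypass polymerase POLH (0.41) did not pass in DMSO.

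The metabolism and redox group was the only one whose members fell more often than they rose. TP53I3, a quinone oxidoreductase also called PIG3, was the weakest expressed member, at 6.96, 7.17, 11.5 and 7.83 CPM in WT and 1.44, 1.85, 3.72 and 1.88 CPM in PARP1-KO cells in DMSO. The groups were apart, on counts of only 14 to 185 per library over the series (log2 fold change -1.91 ± 0.45, adjusted p = 0.000995, edgeR). In untreated cells TP53I3 gave -1.28 with an adjusted p of 0.0307. CMBL, a hydrolase, was at 110, 149, 134 and 136 CPM in WT and 99.3, 90.4, 89.7 and 100.96 CPM in PARP1-KO cells, apart and lower (fell by 0.48 on the log2 scale, adjusted p = 0.00118), and it fell by 0.50 in untreated cells, where WT replicate 3 decided the call (-0.39 without it, adjusted p = 0.0119). TIGAR, which diverts glucose into the pentose phosphate pathway, rose by 0.67 ± 0.16 in DMSO (adjusted p = 0.00137). Without the 8 libraries of few detected genes the adjusted p of TIGAR was 0.0116, and without replicate 3 of either genotype it was up to 0.0212 (0.49 and 0.53). TIGAR shares 1711 exonic bases with a gene on its own strand. SESN1, an inhibitor of mTORC1, gave 0.26 and the mitochondrial ferredoxin reductase FDXR gave -0.04, and neither passed.

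ZMAT3, an RNA-binding protein that regulates splicing, averaged 74.7 ± 4.12 CPM in WT and 130 ± 9.48 CPM in PARP1-KO cells in DMSO (SD, n = 4 each), with no overlap (log2 fold change 0.80 ± 0.13, adjusted p = 6.25e-06, edgeR). In untreated cells the ZMAT3 log2 fold change was 0.44 (adjusted p = 0.013). TRIM22, an antiviral ubiquitin ligase, gave -0.18 in DMSO and did not pass.

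Over all treatments together, the 20 PARP1-KO libraries stood wholly above the 20 WT libraries for 5 members, and for no member wholly below. Over all tested genes 3.15% were separated in this way (1.59% above and 1.56% below), and 7.38% of the expressed genes (3.67% above and 3.71% below). PPM1D ranged from 35.4 to 86.2 CPM in WT and from 169 to 208 CPM in PARP1-KO cells. PLK2 ranged from 34.9 to 70.1 CPM against 110 to 158 CPM. For AEN the ranges were 118 to 190 CPM and 244 to 321 CPM, so that the highest WT libraries, which were drug-treated, stayed below the lowest PARP1-KO library. The ranges of CDKN1A were 189 to 266 CPM and 270 to 356 CPM, and those of BTG2 were 64.0 to 98.4 CPM and 113.6 to 157 CPM. GADD45A missed this by a narrow overlap, since its WT libraries reached 189 CPM with Tpc and its lowest PARP1-KO library was at 183 CPM. Of the 16 members with a p53 half-site pair within 3000 bases 9 passed in PARP1-KO against WT cells in DMSO, as did 7 of the 16 without one, and in untreated cells 8 and 5 passed. Of the tested genes with and without such a pair, 12.1% and 12.6% passed in DMSO and 11.1% and 12.1% in untreated cells.

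The solvent alone moved no member past the threshold. DMSO against no treatment called 0 of 32 members and 0% of all genes in either genotype by edgeR, and 0 members by DESeq2, with 1 member in each genotype at an unadjusted p under 0.05. This was PPM1D in WT cells, where 10.8% of all genes had such a p, and TP53I3 in PARP1-KO cells, where 1.86% did.

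Tpc raised 3 members in WT cells, GADD45A, PLK2 and AEN, and lowered none. Over all genes 0.985% passed in this comparison (0.629% upregulated and 0.356% downregulated), and 2.3% of the expressed genes. The libraries of all 3 were apart from those in DMSO.

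**Figure D2:**
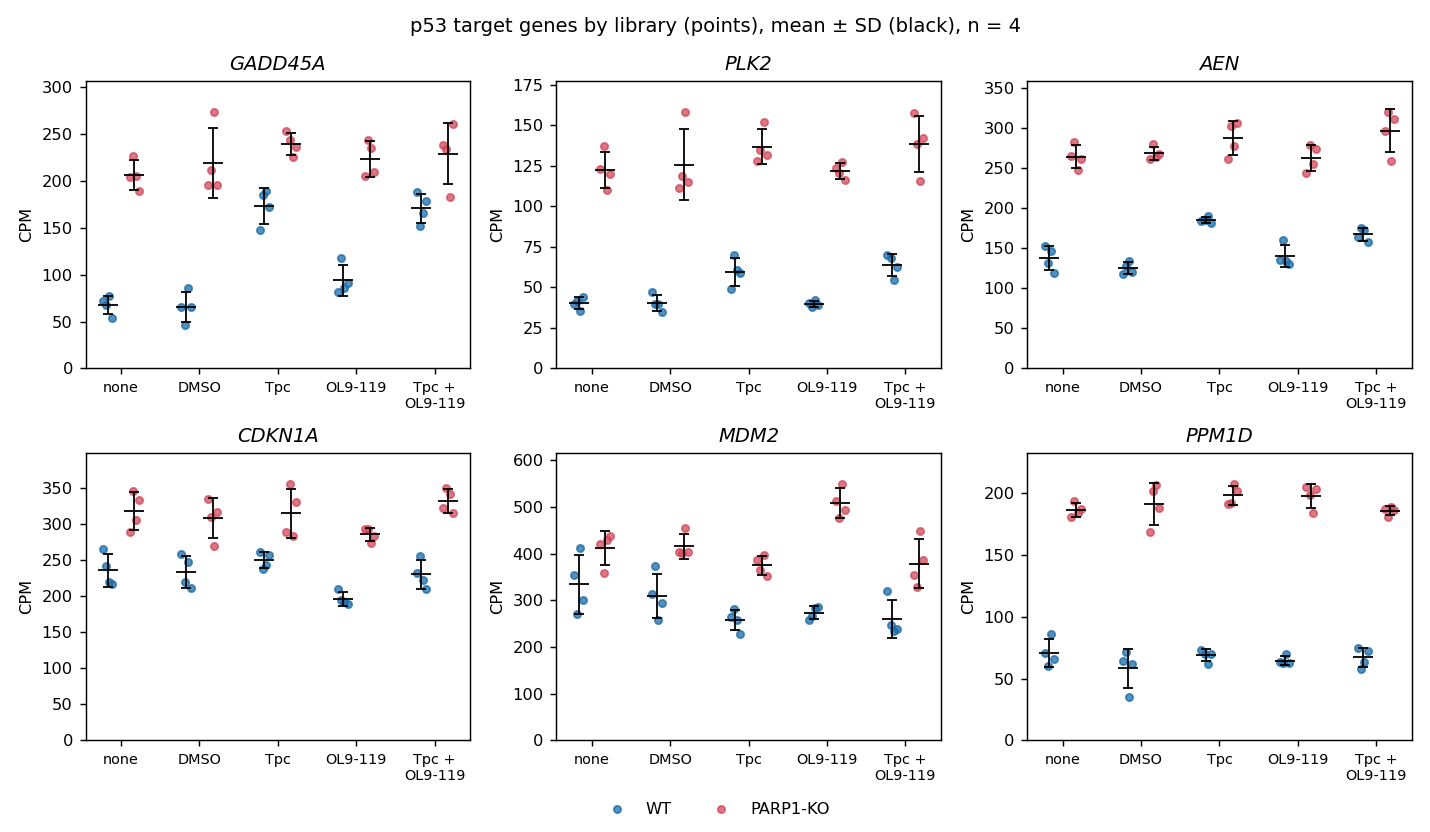
CPM of GADD45A, PLK2, AEN, CDKN1A, MDM2 and PPM1D for the 5 treatments in WT and PARP1-KO cells. Each library is a point, with the group mean and SD in black. GADD45A, PLK2 and AEN passed in a drug comparison, and CDKN1A, MDM2 and PPM1D did not. GADD45A in WT cells climbs from a mean of 65.9 CPM in DMSO to 173 CPM with Tpc, while its PARP1-KO group means stay between 206 and 240 CPM.

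GADD45A responded most. Its WT libraries gave 147, 185, 189 and 172 CPM with Tpc, against 46.6 to 85.9 CPM in DMSO. The mean went from 65.9 ± 16.1 to 173 ± 18.8 CPM (SD, n = 4 each), a log2 fold change of 1.39 ± 0.14 (SE, adjusted p = 4.28e-11, edgeR). The WT cells under Tpc thus came near the level of untreated PARP1-KO cells, 206 ± 15.6 CPM (SD, n = 4). PARP1-KO cells in DMSO, the matched control, were at 219 ± 37.2 CPM (SD, n = 4). AEN gave 184, 185, 190 and 182 CPM with Tpc, a tight group above the 118 to 135 CPM in DMSO (log2 fold change 0.57 ± 0.10, adjusted p = 0.000153). With only the libraries compared in the fit, the AEN call was lost (0.55, adjusted p = 0.0604, edgeR). PLK2 gave 48.7, 70.1, 60.8 and 58.7 CPM, above the 34.9 to 47.2 CPM in DMSO by a small margin (0.55 ± 0.13, adjusted p = 0.00779). The call on PLK2 was lost without Tpc replicate 2, 3 or 4 or DMSO replicate 2, 3 or 4 (0.47 to 0.56, adjusted p up to 0.0511), and without the libraries of few detected genes the value was 0.43 (adjusted p = 0.101). The PLK2 call was also lost with RLE scaling (adjusted p = 0.0136) and with no low-count filter (adjusted p = 0.0177). With only the libraries compared in the fit its adjusted p was 0.249 (edgeR).

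Neither CDKN1A nor MDM2, the most widely used reporters of p53 activity, passed with Tpc. CDKN1A was at 261, 238, 243 and 257 CPM with Tpc, within the 211 to 258 CPM of the DMSO libraries but for the highest, with a log2 fold change of 0.09 and a 95% interval from -0.11 to 0.29. MDM2 was at 265, 281, 258 and 228 CPM against 258 to 373 CPM in DMSO, and its interval of -0.49 to -0.03 lay below 0 at an adjusted p of 0.246. TNFRSF10B, at 171.5, 127.9, 162.9 and 160.8 CPM, came nearest of the rest (0.37, adjusted p = 0.0658), and XPC (0.33) and PPM1D (0.24) did not pass either. The median log2 fold change of the 32 members was 0.04, with 18 above 0 and 14 below, and over the expressed genes it was 0.01. All 3 members that passed were among the 16 with a half-site pair in the window, where 1.11% of the tested genes with a pair and 0.95% of those without one passed. With OL9-119 1 member with a pair and 1 without passed, against 1.03% of the tested genes with a pair and 1.16% without. With the combination 4 and 1 passed, against 3.24% and 3.44%. The window was chosen after the data were seen, and an effect of the sites was not tested.

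OL9-119 alone lowered 2 members in WT cells, TRIAP1 and RPS27L, and raised none, against 1.15% of all genes (0.488% upregulated and 0.66% downregulated) and 2.76% of those expressed. TRIAP1, a mitochondrial lipid-transfer subunit that restrains apoptosis, was at 50.0, 54.5, 56.2 and 47.4 CPM in DMSO and at 30.5, 29.5, 35.9 and 33.6 CPM with OL9-119. The groups were apart (fell by 0.69 on the log2 scale, SE 0.14, adjusted p = 0.00146, edgeR), and the call was lost without the libraries of few detected genes (-0.55, adjusted p = 0.0152) and without OL9-119 replicate 1 (-0.66, adjusted p = 0.0116). RPS27L, a ribosomal protein paralogue that modulates MDM2, was at 166, 145, 224 and 134 CPM in DMSO and at 84.3, 121.04, 101.2 and 89.9 CPM with OL9-119, also apart (fell by 0.76, SE 0.13, adjusted p = 9.8e-05). RPS27L is close in sequence to RPS27, so its counts depend on how reads shared between both were assigned. Both were placed in the apoptosis and survival group by role. With only the libraries compared in the fit, the calls on TRIAP1 (adjusted p = 0.0928, edgeR) and RPS27L (adjusted p = 0.0174) were lost.

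Other members had values near the threshold with OL9-119. BTG2 stood at 65.4, 65.7, 64.0 and 65.7 CPM, below all 4 DMSO libraries (log2 fold change -0.41, adjusted p = 0.0229, edgeR). GADD45A was at 81.2, 118, 85.3 and 90.8 CPM, overlapping its DMSO libraries (0.51, adjusted p = 0.0261). CDKN1A, at 210, 195, 192 and 189 CPM, lay below its DMSO libraries with a log2 fold change of -0.25 (adjusted p = 0.182).

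The combination of Tpc and OL9-119 passed the test for 5 members in WT cells, and these were the 3 that rose with Tpc and the 2 that fell with OL9-119. Over all genes 3.38% passed (1.84% upregulated and 1.54% downregulated), and 7.9% of those expressed. The comparisons share the DMSO libraries and are therefore not independent. GADD45A was at 188, 152, 165 and 179 CPM with the combination (log2 fold change 1.38 ± 0.14, adjusted p = 3.93e-11, edgeR), about its level with Tpc alone. AEN was at 164, 175, 173 and 158 CPM (0.42 ± 0.10, adjusted p = 0.00397), and PLK2 at 70.1, 68.1, 54.4 and 62.6 CPM (0.65 ± 0.13, adjusted p = 0.000415). Both groups lay above their DMSO libraries. AEN lost its call without combination replicate 2 or 3 or DMSO replicate 1 or 4 (0.39 to 0.41, adjusted p up to 0.0176), against untreated cells (0.28, adjusted p = 0.0631) and with no low-count filter (0.40, adjusted p = 0.0286). PLK2 gave 0.47 (adjusted p = 0.0710) without the libraries of few detected genes.

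TRIAP1 was at 38.0, 26.01, 41.0 and 36.8 CPM with the combination and fell by 0.56 on the log2 scale (SE 0.14, adjusted p = 0.00763, edgeR). RPS27L lay between 96.1 and 121.7 CPM in the 4 libraries, with a mean of 104.45 ± 11.7 CPM (SD, n = 4), and fell by 0.68 (SE 0.13, adjusted p = 0.000273). Both groups lay below their DMSO libraries. The TRIAP1 call was lost without the libraries of few detected genes (-0.33, adjusted p = 0.343), with no low-count filter (-0.58, adjusted p = 0.0128), and without combination replicate 1, 2 or 4 or DMSO replicate 1, 2 or 3 (-0.60 to -0.43, adjusted p up to 0.0614).

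Set directly against Tpc alone, adding OL9-119 moved 0 members past the threshold in WT cells (edgeR and DESeq2), where 0.18% of all genes passed (0.118% upregulated and 0.0622% downregulated). At an unadjusted p under 0.05 there were 5 members and 10.8% of all genes. TRIAP1 was nearest (log2 fold change -0.53 ± 0.14, adjusted p = 0.0932). In PARP1-KO cells the same comparison called 0 members by both tools and 0% of all genes, with 2 members and 4.1% of all genes at an unadjusted p under 0.05.

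**Figure D3:**
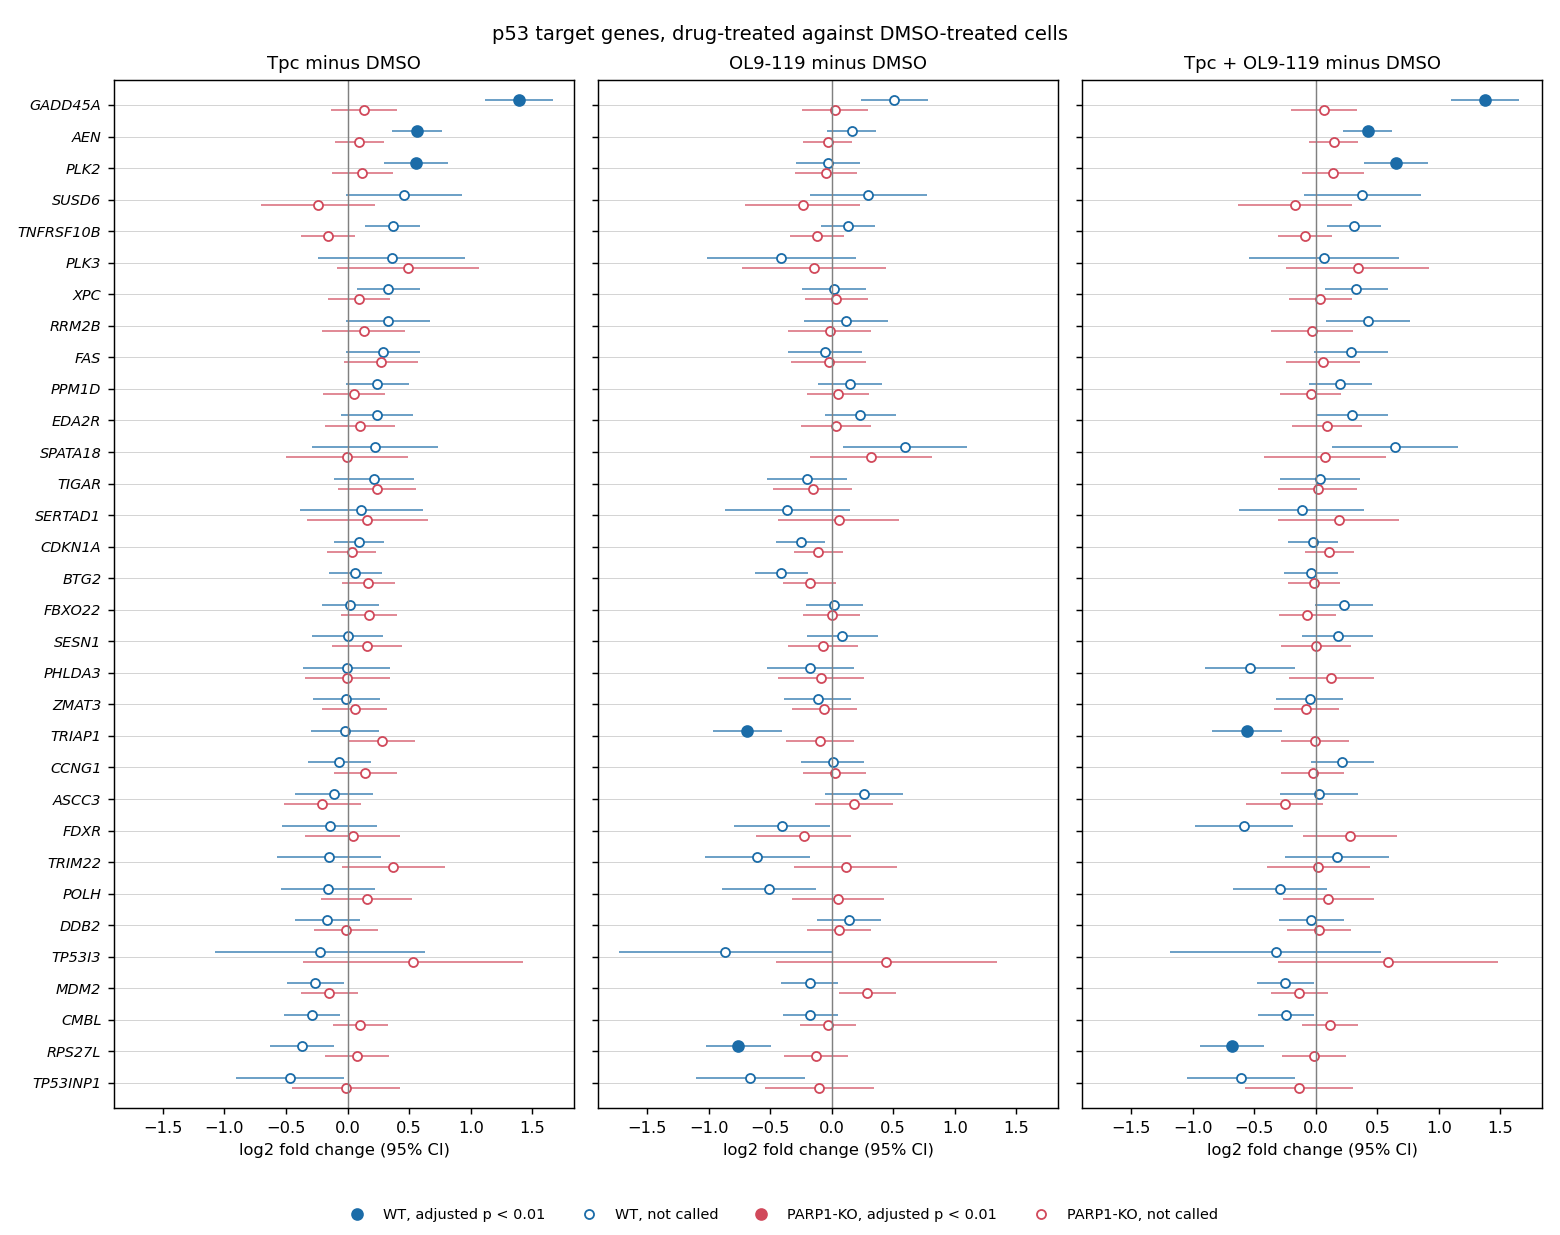
Log2 fold change against DMSO of each p53 target with Tpc, OL9-119 and the combination, in WT and PARP1-KO cells, with bars for the 95% confidence interval and filled points for members past the threshold. Filled points appear in WT cells only (3, 2 and 5 members), and GADD45A, at 1.39 and 1.38, stands apart from the rest with Tpc and with the combination.

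In PARP1-KO cells no drug moved a member past the threshold. Tpc called 0 members and 0% of all genes, OL9-119 called 0 members and 0.00346% of all genes, and the combination called 0 members and 0% of all genes by edgeR. DESeq2 also called 0 members in all 3. At an unadjusted p under 0.05 there were 1, 1 and 0 members, against 3.81%, 2.32% and 2.88% of all genes. These were TRIAP1 with Tpc (log2 fold change 0.28) and MDM2 with OL9-119 (0.29). MDM2 was at 513, 475, 549 and 494 CPM with OL9-119 in PARP1-KO cells, all above the 401 to 455 CPM in DMSO, at an adjusted p of 1.

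GADD45A was at 253, 244, 226 and 237 CPM with Tpc in PARP1-KO cells, inside the range of the DMSO libraries, 195 to 274 CPM. Its log2 fold change was 0.13, and the 95% interval of -0.14 to 0.40 does not reach the WT value of 1.39. With the combination the libraries gave 239, 234, 183 and 260 CPM, a log2 fold change of 0.07 with an interval from -0.20 to 0.33. PLK2 (0.12 and 0.14) and AEN (0.10 and 0.14) gave small values with Tpc and with the combination, from DMSO levels of 125.8 and 269 CPM that were already above any WT library. TRIAP1 and RPS27L did not pass with OL9-119 in PARP1-KO cells, where TRIAP1 was at 54.0, 59.8, 51.0 and 47.2 CPM and RPS27L at 127.6, 141.0, 141.0 and 144.2 CPM.

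The responses were compared between genotypes by the difference of their log2 fold changes. GADD45A was the only member whose response differed. Its Tpc response was lower in PARP1-KO than in WT cells by a log2 difference of -1.26 ± 0.19 (95% interval -1.65 to -0.88, adjusted p = 2.53e-05, edgeR), in a comparison where 0.173% of all genes passed (0.0311% with a positive and 0.142% with a negative difference). For the combination the difference was -1.31 ± 0.19 (95% interval -1.69 to -0.93, adjusted p = 5.67e-06), where 0.432% of all genes passed (0.121% and 0.311%). The control level of GADD45A differed between the genotypes by more than this, and the Tpc dose was lower in PARP1-KO cells, so neither the start level nor the dose can be told apart from the genotype in these differences.

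For the other responding members the difference itself did not pass. The Tpc response differed by -0.43 for PLK2 (adjusted p = 0.475) and by -0.47 for AEN (adjusted p = 0.209). With OL9-119, at the same dose in both genotypes, the difference was 0.59 for TRIAP1 (adjusted p = 0.454) and 0.63 for RPS27L (adjusted p = 0.296), and 0 members passed by edgeR or DESeq2, with 7 members and 8.37% of all genes at an unadjusted p under 0.05. Over all genes 0.1% passed. These members thus passed in WT cells and not in PARP1-KO cells, and their responses were not shown to differ.

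The genes that act upstream of the targets were examined as a list of 24 regulators of p53. In PARP1-KO against WT cells in DMSO, 5 rose and 1 fell, a share of 25% that is near the 27.8% of the expressed genes (12.4% of all tested genes). The median log2 fold change was 0.29, against 0.02 over the expressed genes. Those that rose most were ATR, the damage kinase (log2 fold change 0.84), MDM4, the partner of MDM2 that inhibits p53 (0.80), TP53BP1, a break-binding adaptor (0.79), and EP300, an acetyltransferase (0.78). KAT5, an acetyltransferase that also acts on p53 and ATM, fell (-0.75). In untreated cells 7 rose and 1 fell, 33.3% of the list against 11.7% of all tested and 26.6% of the expressed genes. With Tpc and with OL9-119 alone 0 regulators passed in WT cells by edgeR, and DESeq2 called 0 of them with either. At an unadjusted p under 0.05 there were 9 and 7 of the 24, against 16.2% and 17% of all tested genes. With the combination 3 rose and 1 fell, 16.7% of the list against 3.38% of all tested and 7.9% of the expressed genes. The rises were led by the deacetylase SIRT1 (0.78), with the p53 partner TP53BP2 (0.60) and the checkpoint kinase CHEK1 (0.59). RPL11, a ribosomal protein that binds MDM2, fell (-0.60). Its libraries overlapped, at 993 to 2333 CPM in DMSO and 821 to 1168 CPM with the combination. DESeq2 called 4 regulators that rose and 0 that fell with the combination, so the call on RPL11 was lost. Without the 8 WT libraries of low complexity, 1 rose and 1 fell with the combination. In PARP1-KO cells 0 regulators passed with any drug by edgeR or DESeq2. At an unadjusted p under 0.05 there were 0, 2 and 1 for Tpc, OL9-119 and the combination, against 3.81%, 2.32% and 2.88% of all tested genes.

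A further list of 46 genes that p53 is known to activate moved in both directions too. In DMSO 13 rose and 4 fell in PARP1-KO cells, 37.0% of the list against 12.4% of all tested and 27.8% of the expressed genes. The median log2 fold change of the list was 0.35, against 0.02 over the expressed genes. GDF15, a stress cytokine, went from 18.3 ± 3.23 to 91.5 ± 16.7 CPM (SD, n = 4 each), and SFN, the 14-3-3 protein that holds CDK1 in the cytoplasm, went from 23.3 ± 5.76 to 7.94 ± 0.613 CPM. The 2 with the largest fitted changes were near 0 in WT cells and are given by level, namely TNFRSF10C at 0 in WT and 0 to 2.56 CPM in PARP1-KO cells, and PRDM1 at 0 to 1.10 and 3.59 to 9.10 CPM. In untreated cells 11 of the 46 rose and 5 fell, 34.8% of the list against 11.7% of all tested and 26.6% of the expressed genes.

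With Tpc in WT cells only 1 of these 46 passed (2.17%), against 0.985% of all tested and 2.3% of the expressed genes. This was PMAIP1 (NOXA), a BH3-only protein of apoptosis, which rose from 419 ± 34.6 to 596 ± 19.4 CPM (SD, n = 4 each, log2 fold change 0.51, adjusted p = 0.000144, edgeR). OL9-119 raised GDF15 (log2 fold change 1.95) and SESN2, an inhibitor of mTORC1 (1.08), and lowered the decoy receptor TNFRSF10D (-1.18). These were 6.52% of the list, against 1.15% of all tested and 2.76% of the expressed genes. GDF15 and SESN2 are also known targets of ATF4, the factor of the integrated stress response, so they are not specific to p53. With the combination 4 rose and 1 fell, GDF15 (1.23), E2F7 (0.84), PMAIP1 (0.79) and SESN2 (0.73) against TNFRSF10D (-1.10). This was 10.9% of the list, against 3.38% of all tested and 7.9% of the expressed genes. The OL9-119 response was lower in PARP1-KO cells for GDF15 (difference -1.75) and SESN2 (-0.95), both past the threshold. The combination response was lower in PARP1-KO cells for PMAIP1 (difference -0.74, adjusted p = 0.000152, edgeR) and higher for TNFRSF10D (1.09, adjusted p = 0.000979, edgeR). In PARP1-KO cells 0 of the 46 passed with any drug against DMSO by edgeR or DESeq2. At an unadjusted p under 0.05 there were 0 in each of these comparisons, against 3.81%, 2.32% and 2.88% of all tested genes with Tpc, OL9-119 and the combination. Without the 8 WT libraries of low complexity, 3 of the 46 rose with Tpc in WT cells. DESeq2 called 2 that rose with Tpc, and 7 that rose and 2 that fell with the combination.

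Genes that p53 represses through p21 and the DREAM complex, mostly of the late cell cycle, were the list that moved most with Tpc. Of 36 such genes 17 fell and 1 rose in WT cells with Tpc, against 0.985% of all tested and 2.3% of the expressed genes, with a median log2 fold change of -0.55. The mitotic kinesin KIF20A went from 133 ± 27.6 to 40.2 ± 7.21 CPM (SD, n = 4 each, log2 fold change -1.73), and the mitotic kinase PLK1 from 119 ± 16.8 to 37.3 ± 8.44 CPM (-1.67). The centromeric histone CENPA fell by 1.58, the spindle checkpoint target CDC20 by 1.39 and the kinase AURKA by 1.33 on the log2 scale. CDC25A, a phosphatase of the start of S phase, was the 1 that rose (0.58). CDKN1A, whose protein acts upstream of this complex, had a log2 fold change of 0.09 in the same libraries.

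With the combination 16 of the 36 fell and 1 rose (CHEK1, which is also on the list of regulators), with a median of -0.57. Over all tested genes 3.38% passed with the combination, and 7.9% of the expressed genes. With OL9-119 alone 2 fell, PTTG1 (-0.76) and cyclin B1 (CCNB1, -0.56), which is 5.56% of the list. Of all tested genes 1.15% passed with OL9-119, and 2.76% of the expressed genes. Without the 8 WT libraries of low complexity, 19 fell and 0 rose with the combination, so that the rise of CHEK1 was lost, and 5 fell with OL9-119. DESeq2 called 18 that fell and 2 that rose with the combination, and 4 that fell with OL9-119. In PARP1-KO cells 0 of the 36 passed with any drug by edgeR or DESeq2. At an unadjusted p under 0.05 there were 5, 0 and 1 for Tpc, OL9-119 and the combination, against 3.81%, 2.32% and 2.88% of all genes. The median log2 fold change of the list with Tpc was -0.12 in PARP1-KO cells, against 0.0006 over the expressed genes. Without the 8 libraries 1 of the 36 fell with Tpc in PARP1-KO cells. The difference of the Tpc responses passed for 4, KIF20A (1.39), CDC20 (1.10), CCNB1 (1.03) and TOP2A (0.76), and for 9 both by DESeq2 and without the 8 libraries. Over all tested genes 0.173% passed for this difference, and 0.414% of the expressed genes. The difference of the combination responses passed for 10 (13 by DESeq2), all with a higher value in PARP1-KO than in WT cells. For it 0.432% of all tested and 1.03% of the expressed genes passed. With the combination the PARP1-KO mean was not lower for CCNB2 (83.8 against 81.5 CPM in DMSO) and CENPA (10.86 against 10.77 CPM). For the others of these 10 it was lower, as for PLK1 (68.9 against 79.1 CPM). In DMSO the PARP1-KO means of CCNB2 and CENPA were already near or below the WT means with Tpc, 78.7 and 15.4 CPM. So was that of CCNB1 (134.6 against 131.9 CPM), while KIF20A, TOP2A and UBE2C did not pass between the genotypes in DMSO. The Tpc dose was lower in PARP1-KO cells, so neither dose nor, where it differed, start level can be told apart from the genotype. In DMSO the list was lower in PARP1-KO than in WT cells for 12 genes and higher for 3. This was 41.7% of the list, against 12.4% of all tested and 27.8% of the expressed genes. CENPA (-2.08) and CCNB1 (-1.20) were among those that fell and CDC25A (0.96) among those that rose.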

How the data were processed

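Poly(A) RNA libraries of HEK293A cells were sequenced, and the authors deposited 1 table of raw read counts per gene, with no normalization. Per the submitters' notes and methods, reads were aligned with STAR (version 2.7.8) to hg38 and counted on Ensembl release 93 genes. The library kit keeps strand, and whether the counts use it is not given in the sources used here. All 40 columns belong to samples of the series, and 0 belong to others. Of the 58395 Ensembl identifiers, 57754 matched GENCODE release 44, which gave the symbols.

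The members and gene lists were chosen with earlier results of these data known. Genes whose counts added up to 10 or more over the series (28922) were scaled by TMM and tested in edgeR 4.0.16 (R 4.3.3), by quasi-likelihood F-tests in 1 fit with a term for each of the 10 groups. The p-values were adjusted by the Benjamini-Hochberg method over all tested genes, and the threshold was 0.01, as in the study. Standard errors were the log2 fold change divided by the square root of F. CPM are counts scaled to a common total of the TMM-adjusted library. DMSO-treated cells were the control. With 3455043 to 20379777 counts per library, TP53I3 had the lowest counts of the members (14 to 185), and precision is lowest there.

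CPM is given per library for members that passed in a drug comparison or a difference of responses, and for those that passed in both genotype comparisons. Of the other lists (p53 regulators, other p53-activated genes and DREAM-repressed genes) at most 5 members per comparison are named, by size of change, and 2 genes of these lists are not reported here. The HEK293 marker genes were VIM, KRT8, KRT18, NEFM and NEFL.

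The half-site pair was searched 3000 bases either side of the GENCODE start, a window chosen after the data were seen. Promoters came from RefSeq. In data simulated for Tpc against DMSO in WT cells (27487 genes), the test recovered 18 of 100 genes changed 1.5-fold and 90 of 100 changed 2.5-fold, and called 2 unchanged genes. Alternatives were DESeq2 1.42.0, RLE scaling, no filter, filterByExpr, only the libraries compared, a replicate block, a term for the prefix of each library's name, length and GC offsets, untreated cells as the control, and leaving out each library. Leaving out the 8 libraries with under 17000 detected genes was chosen after the data were seen. No 2 libraries agreed within sampling noise.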

Additional observations from a re-analysis of the deposited data

Results flagged for a closer look

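In 9 of 140 groups of 4 libraries looked at (14 genes in 10 groups), 1 library stood apart from the other 3, where chance gives about 1 in 20. PLK2 was at 158 CPM in replicate 3 of PARP1-KO cells in DMSO, and at 111 to 119 CPM in the other 3. With OL9-119 in WT cells, AEN was at 161 CPM in replicate 2 against 131 to 135 CPM, TNFRSF10B at 109 CPM in replicate 2 against 138 to 142 CPM, PPM1D at 69.9 CPM in replicate 3 against 62.5 to 63.7 CPM, and BTG2 at 64.0 CPM in replicate 3 against 65.4 to 65.7 CPM. The last 2 gaps are small in size.

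CMBL was at 168 CPM in replicate 3 of untreated WT cells, against 125.98 to 133 CPM. PARP1, the deleted gene, was at 737 CPM in replicate 3 of WT cells in DMSO against 834 to 850 CPM, at 761 CPM in replicate 2 of WT cells with Tpc against 799 to 805 CPM, and at 43.9 CPM in replicate 1 of untreated PARP1-KO cells against 33.5 to 34.8 CPM. Of these libraries, replicate 3 of WT in DMSO and replicates 2 of WT with Tpc and with OL9-119 are among the 8 with few detected genes, as is replicate 3 of untreated WT cells.

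GADD45A was the only member whose response to a treatment differed between the genotypes, by a log2 difference of -1.26 for Tpc and of -1.31 for the combination (PARP1-KO minus WT). The Tpc dose was 50 nM in PARP1-KO and 100 nM in WT cells, so genotype and dose cannot be told apart, and the control level was 219 ± 37.2 CPM against 65.9 ± 16.1 CPM (SD, n = 4 each).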

How the results depend on the processing

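Of 288 counts of called members under other settings, 278 stayed within 1.5 times the reported count. Of 759 values under them that had passed, 684 still passed, 75 no longer did and 0 changed direction. When only the libraries compared entered the fit, 10 members passed in PARP1-KO against WT in DMSO, 1 with Tpc in WT, 0 with OL9-119 in WT and 2 with the combination in WT. The genotype calls lost in DMSO were CDKN1A, MDM2, FAS, RRM2B, TIGAR and CMBL (adjusted p 0.0222 to 0.0808, edgeR). In untreated cells they were CDKN1A, PLK3 and EDA2R (0.0139 to 0.0270). The drug calls lost in WT cells were PLK2 and AEN with Tpc, and TRIAP1 and RPS27L with OL9-119. With the combination they were PLK2, AEN and TRIAP1 (0.0607 to 0.200). With no filter the combination called 3. Without the 8 libraries of few detected genes OL9-119 called 1 and the combination 3. The smaller fits hold fewer samples, and beyond that the cause was not tested.

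Leaving out 1 library at a time gave 13 to 15 members for PARP1-KO against WT in DMSO, 11 to 14 untreated, 2 to 3 with Tpc in WT, 1 to 3 with OL9-119 (1 without replicate 1 of that group), and 3 to 4 with the combination (3 without replicate 1 in DMSO or replicate 2 of the combination). It gave 1 for each difference of the Tpc and combination responses and 0 for the remaining comparisons.

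Counts of calls over all genes, with their range over the settings other than leaving out 1 library, were 3590 (2089 to 4227) in PARP1-KO against WT in DMSO and 3385 (2705 to 3961) untreated. In WT cells they were 285 (120 to 449) with Tpc, 332 (97 to 559) with OL9-119, 978 (405 to 1394) with the combination, 52 (49 to 106) for the combination against Tpc and 0 (0 to 9) for DMSO. In PARP1-KO cells they were 0 (0 to 21) with Tpc, 1 (0 to 14) with OL9-119, 0 (0 to 5) with the combination and 0 (0 to 13) for the combination against Tpc. The differences of responses gave 50 (29 to 92) for Tpc, 29 (19 to 52) for OL9-119 and 79 to 227 for the combination, where 0.432% passed as reported.

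Replicate numbers did not pair the libraries, since deviations of same-numbered libraries had a mean correlation of 0.06 within WT, 0.0989 within PARP1-KO and -0.00273 between them. A replicate block gave 16 members in PARP1-KO against WT in DMSO, 14 untreated, 3 with Tpc, 2 with OL9-119, 5 with the combination in WT, 1 for each GADD45A difference and 0 elsewhere. All 41 called values, PARP1 included, kept their sign within each prefix of the library names. At these depths and 4 libraries per group, 1.5-fold changes were mostly missed in simulation, and depth itself was not varied.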
